A study of Mus musculus with 2 samples.

Results

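The genes described here are 10 immediate-early transcription factor genes, Fos, Fosb, Jun, Junb, Jund, Egr1, Egr2, Egr3, Atf3 and Ier2, chosen by symbol from the 31053 genes of the count matrices. Each symbol occurred on 1 row of the matrix. They were followed through single-cell RNA libraries of the colonic lamina propria, the connective tissue under the gut lining, from a study of how the long noncoding RNA lncly6c (1700016P04Rik) affects macrophage differentiation. One library came from mice labelled wild type and 1 from mice labelled deficient for lncly6c, in which Cas9 cuts on either side of the gene removed all of it in every cell. Both were male C57BL/6 mice aged 6 to 8 weeks, kept free of specific pathogens, and the number of animals behind each library is not given in the sources used here. With 1 library per genotype there was no replicate and no test. The intervals given are 95% intervals for counting error only, and a difference between the libraries cannot be told apart from a difference between 2 animals or preparations. The genotype words in the deposited file names are the reverse of those in the labels. The targeted gene had 0 UMIs (counts of single mRNA molecules) in both libraries, so it does not check the labels. The upper ends of its intervals were 0.158 UMIs per 1000000 UMIs (CPM) in the wild-type-labelled library and 0.0673 in the other. Groups follow the labels, and every direction below would be exchanged if the file names were right.

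Immediate-early genes are transcribed within minutes of a stimulus from factors already present in the cell, without new protein synthesis. Fos and Jun proteins are leucine zipper factors that pair to form AP-1, which binds DNA and switches on later genes of growth, inflammation and tissue remodelling. Egr proteins are zinc finger factors induced by the same kinase cascades, and in lymphocytes they are known for setting activation and tolerance. Atf3 is a stress-induced member of the ATF/CREB family that often damps inflammatory genes, and Ier2 is a short-lived nuclear protein of the same early wave. In tissues digested to single cells, these genes are also widely known to be induced by the dissociation itself.

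CRE, EGR and serum response elements are among those through which such induction is known to work, and the stretches below are shown because they hold one of the motifs searched. RefSeq (GRCm38.p6) promoter windows, from 250 bases before to 50 after a start, matched 7 of the 10 genes, with 5 windows for Egr2. Egr1, Egr3 and Ier2 had no window and were not searched, nor was sequence outside the windows. The motifs searched on both strands were the CRE (TGACGTCA), its core TGACG, which also lies within every CRE, the AP-1 site (TGANTCA), the EGR site (GCGTGGGCG or GCGGGGGCG) and the CArG box of serum response factor. Capitals mark the motif, and each stretch is written 5′ to 3′ on the gene's strand.
Fos core site, chr12:85473746-85473780, plus strand: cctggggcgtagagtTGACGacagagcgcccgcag
Fos core site, chr12:85473809-85473843, plus strand: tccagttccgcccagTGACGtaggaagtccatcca
Fosb core site, chr7:19310086-19310120, minus strand: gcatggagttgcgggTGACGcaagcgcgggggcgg
Fosb EGR site, chr7:19310072-19310110, minus strand: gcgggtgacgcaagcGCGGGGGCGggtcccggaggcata
Junb core site, chr8:84978835-84978869, minus strand: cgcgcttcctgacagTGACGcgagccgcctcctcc
Egr2 CArG box, chr10:67537479-67537518, plus strand: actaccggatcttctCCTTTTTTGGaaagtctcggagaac
Egr2 CArG box, chr10:67537782-67537821, plus strand: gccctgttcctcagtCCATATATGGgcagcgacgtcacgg
Atf3 core site on the opposite strand (CGTCA), chr1:191183334-191183355, minus strand: ctattaatagcattaCGTCAgc

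The Fos core sites began 129 and 66 bases before the start. In Fosb a core site at -60 stood just upstream of the EGR site at -50. Of 32851 mouse promoter windows, 1.63% held a CArG box. Of the 7 members with a window, Egr2 alone held one, in 4 of its 5 windows, which overlap in part. Core sites flanked it in 3 of these windows. An EGR site was in 3.47% of all windows and a core site in 20.8%. The windows of Jun and Jund held none of the searched motifs, and no window of a member held a full CRE or an AP-1 site, which 1.79% and 7.81% of all windows held. The start of the gene given below lay outside the Jund and Atf3 windows and outside the 4 Egr2 windows with a CArG box, whose RefSeq starts differ from it. These are matches of letters only. In the genome annotation (GRCm38) Fos lay on chromosome 12 (85473890 to 85477273), Fosb on 7 (19302696 to 19310051), Jun on 4 (95049034 to 95052222), Junb on 8 (84974484 to 84978718) and Jund on 8 (70698949 to 70700616). Egr1 lay on chromosome 18, Egr2 on 10 (67535475 to 67542188), Egr3 on 14 (70077203 to 70082614), Atf3 on 1 (191170296 to 191218039) and Ier2 on 8 (84661331 to 84662852). Genes on the opposite strand overlapped Jun (Junos), Junb (Prdx2) and Jund (Gm11175). Whether the counting used strand is not given in the sources used here, and the part of these genes in the members' counts was not tested. Junos and Gm11175 had at most 32 UMIs in a library. Prdx2, an antioxidant enzyme gene that shares 3′ sequence with Junb, had 157 and 184 CPM against 1896 and 1529 for Junb.

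After filtering, 2605 wild-type-labelled and 5889 deficient-labelled cells remained, given in this order throughout, with medians of 6206 and 7848 UMIs. The mitochondrial limit of 20% was exceeded by 13.5% and 3.78% of barcodes, and 7 barcodes occurred in both libraries. Cells were grouped into 24 clusters without using these 10 genes, other immediate-early genes or heat shock genes, and clusters were named from marker genes, so that every name means a cell "like" that type. A comparison needed 50 cells of a class in both libraries, which 9 classes had: B cells (87 and 589), conventional dendritic cells (761 and 1933), T cells (103 and 411), Ly6c-high monocytes (278 and 726), macrophages (272 and 852), neutrophils (274 and 148), and 3 clusters without a name. Cluster 3 (420 and 244 cells) was led by Serpinb2, Ccr3 and Alox15 and had a median of 853 UMIs. Cluster 10 (148 and 219) was led by Gm26917 and Gm42418, had Jun among its 10 leading genes, and had a median mitochondrial share of 13.1% and 12.4%. Cluster 12 (106 and 188) was led by Tifab and the heat shock gene Hspa1a. Orders of levels below are over these 9 classes alone. All fixed markers of the 6 named classes had UMIs in both libraries. The T cell class includes cluster 14 (13 and 162 cells), which had a median of 14259 UMIs. Cells with a UMI of the MHC class II gene H2-Ab1, an antigen-presenting cell gene, made up 51.5% and 89.8% of the T cell class, and the summed level of the 11 dendritic cell markers in it was 561 and 1092 CPM.

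Summed over the 10 genes, the level was expressed as UMIs per 1000000 UMIs of the class (CPM). In the wild-type-labelled library the order ran from neutrophils at 9015 CPM (8827 to 9206) and cluster 3 at 8581, whose intervals overlapped, through cluster 12 at 7854, cluster 10 at 7527 and T cells at 7313. Macrophages followed at 6368, Ly6c-high monocytes at 5594, dendritic cells at 4865 and B cells at 4641, the last 2 again with overlapping intervals. In the deficient-labelled library, cluster 3 was highest of the compared classes at 8186 and Ly6c-high monocytes lowest at 3666 (3616 to 3717), below dendritic cells at 3973 and B cells at 4127. The 3 unnamed clusters, which include the shallowest cells and those with the highest mitochondrial share, were thus near the top in both libraries. Neutrophils stood first in the wild-type-labelled library and, at 5607 CPM, below the 3 unnamed clusters in the other. Because these are counts in bulk sums, more cells with the RNA and more RNA per cell cannot be told apart in them.

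**Figure D1:**
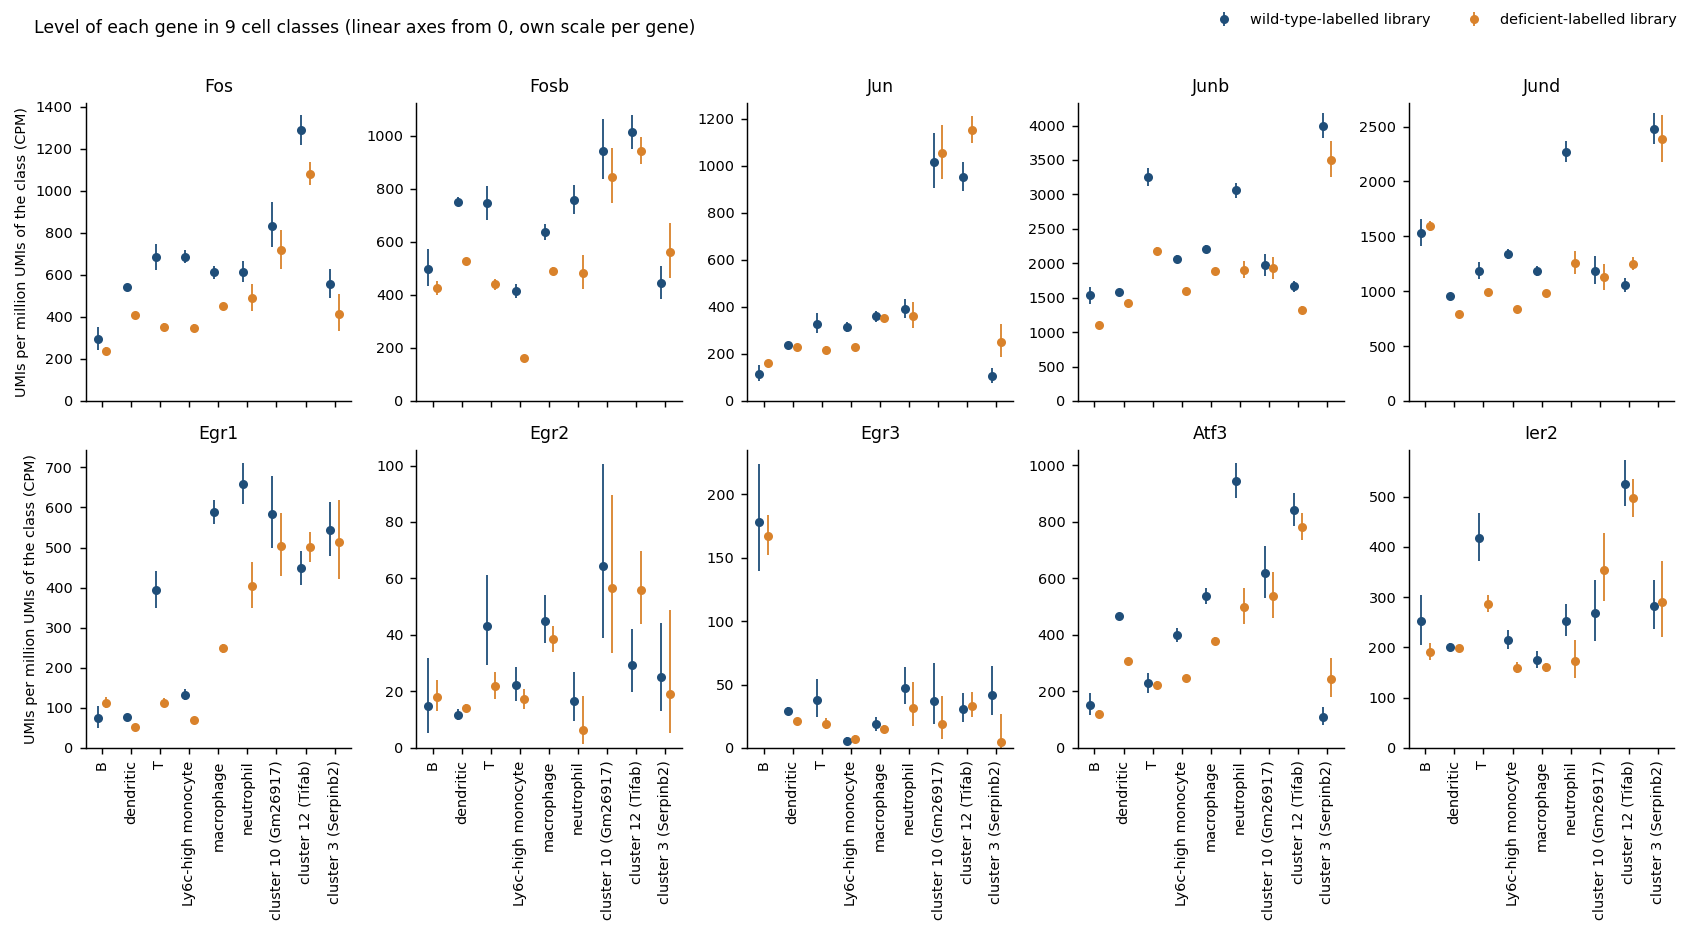
Level of each of the 10 genes in the 9 compared classes, as UMIs per 1000000 UMIs of the class (CPM), with 95% counting intervals, in the wild-type-labelled (blue) and deficient-labelled (orange) library; axes are linear and start at 0, each gene on its own scale. Egr3 stands high in B cells, Jun in clusters 10 and 12, and Junb in cluster 3, in both libraries, and the blue point lies above the orange one for all 10 genes in T cells and macrophages.

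In 9 of 9 compared classes the summed level was lower with the deficient label, by amounts that varied. It was 9015 against 5607 CPM in neutrophils, a log2 ratio of deficient-labelled over wild-type-labelled of -0.69 (-0.75 to -0.62), 5594 against 3666 in Ly6c-high monocytes (-0.61, -0.64 to -0.58) and 7313 against 4840 in T cells (-0.60, -0.64 to -0.55). Monocytes and T cells were just past 1.5-fold, the size used below to count a gene as lower or higher. Without cluster 19, led by Arg1, Rsad2 and Ccl2, monocytes had -0.576, and without cluster 14 T cells had -0.504, so that neither stayed past it. Removing doublets by score rank gave -0.479 in neutrophils, within 1.5-fold. Of 13 other settings tried, 9 kept monocytes, 10 kept T cells and 9 kept neutrophils past 1.5-fold. In neutrophils the 8 markers of the class itself summed to 73499 and 46104 CPM and the 12 macrophage markers to 1137 and 2417 CPM, and their part in the difference was not tested. Macrophages had 6368 against 5008 CPM (-0.35), dendritic cells 4865 against 3973 (-0.29) and B cells 4641 against 4127 (-0.17). In clusters 10, 12 and 3 the ratios were -0.08, -0.04 and -0.07, and the intervals of clusters 10 and 3 held 0. Cluster 3 turned to 0.00322 with median-of-ratios scaling and to 0.107 with cells thinned to 1000 UMIs. Cluster 10 moved to -0.296 as a mean over cells and to -0.191 with thinning. Here and below, thinning left out cells with fewer than 1000 UMIs. Cluster 3 had medians of 971 and 713.5 UMIs, so most of its cells were left out. Over the 9 classes the median ratio was -0.29.

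Counting members past 1.5-fold set this against all other genes with at least 50 UMIs in a class. Of 10 members measured in Ly6c-high monocytes, 5 were lower and 0 higher, where 7.21% of 7328 genes were lower and 7.98% higher. In T cells 6 of 10 were lower and 0 higher, against 11.5% and 19.1% of genes. Without cluster 14 it was 3 of 8 (Fos, Fosb and Egr1), against 6.93% and 11.1% of 4155 genes, with Egr2 and Egr3 under the minimum of UMIs. In neutrophils 6 of 9 measured members were lower and 0 higher, against 10.8% and 16.3%. That count ran from 3, with a stricter cell filter, to 7, with no mitochondrial limit, and in Ly6c-high monocytes from 3, with per-cell marker gates, to 7, with thinning. As reported, the share of lower members stood above that of all genes in each of these classes, and in T cells also without cluster 14. For the other settings the share of all genes was not computed. Macrophages had 1 of 10 lower (Egr1) and 0 higher, against 4.70% and 8.92%, and dendritic cells had 1 of 10 lower (Atf3) and 0 higher, against 4.28% and 5.18%. B cells had 0 of 10 lower and 1 higher (Egr1), against 8.39% and 16.0%. In cluster 10, 0 of 8 measured members were past 1.5-fold either way, against 7.58% lower and 8.41% higher, and in cluster 12 Egr2 alone of 10 was higher, against 4.74% and 6.79%. Cluster 3 had 0 of 8 lower and 2 higher (Jun and Atf3), against 11.4% and 12.0%. From macrophages on, each of these counts was within 2 genes of 0, and nothing is read from it.

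In monocytes and macrophages joined, the cells the study was about, 10 of 10 members had a ratio below 0, with a median of -0.37, where the median over 9400 genes was 0.03 and 46.3% were below 0. Past 1.5-fold there were 2 lower (Fos and Egr1) and 0 higher, against 5.45% and 7.77% of genes. The members' median was -0.57 in Ly6c-high monocytes, -0.68 in T cells and -0.65 in neutrophils, beside medians over all genes of 0.02, 0.03 and 0.02. It was -0.29 in macrophages, -0.34 in dendritic cells and -0.16 in B cells, beside 0.05, 0.01 and 0.02. In clusters 10, 12 and 3 it was -0.12, 0.02 and -0.01.

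**Figure D2:**
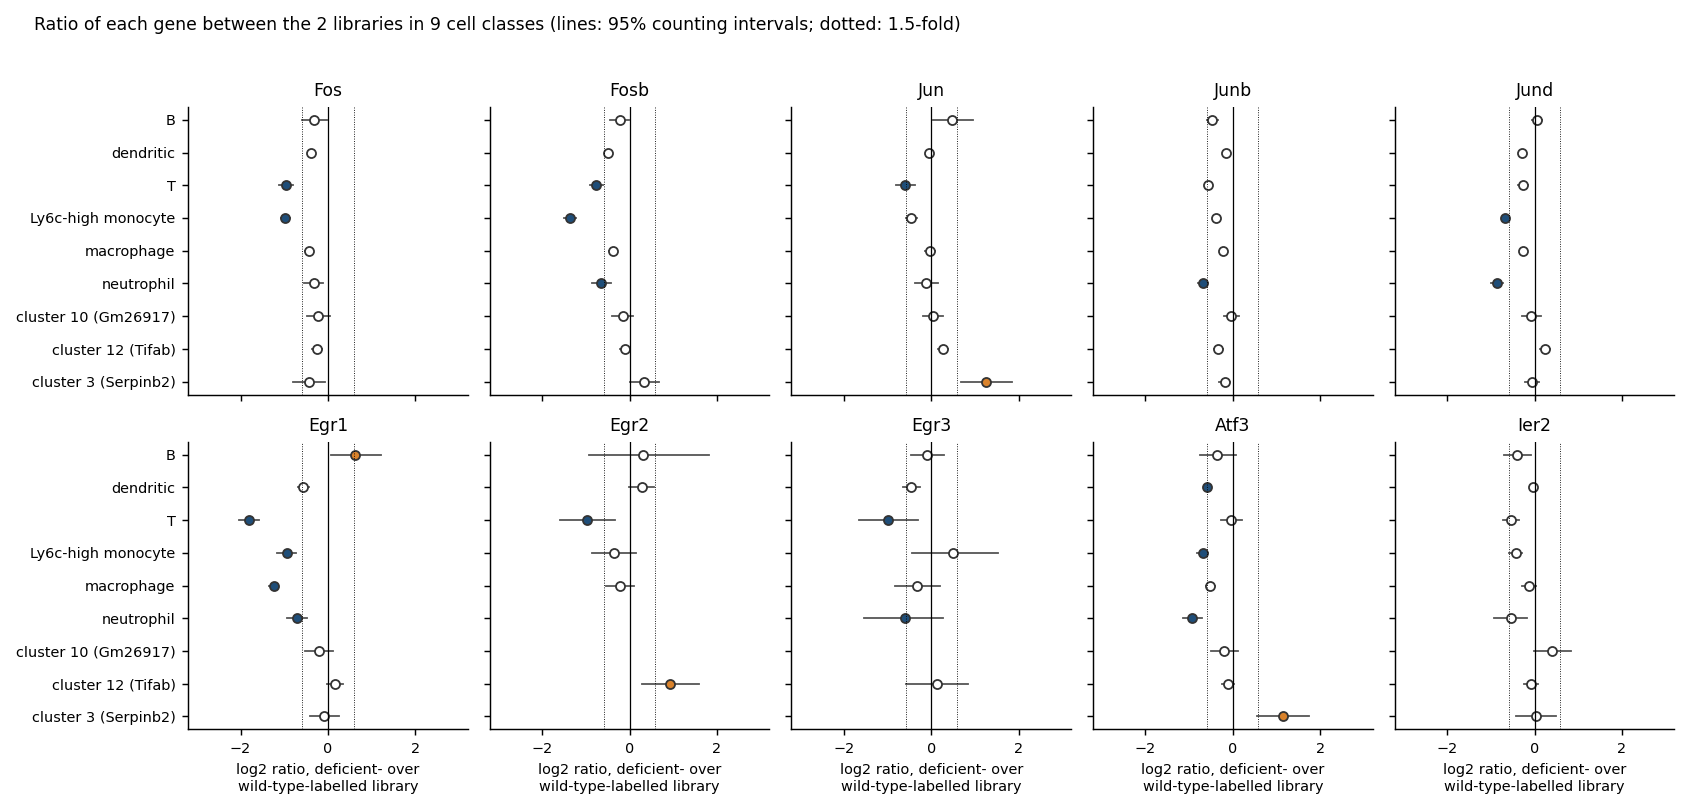
Log2 ratio of each gene, deficient-labelled over wild-type-labelled library, in each class where it had at least 50 UMIs, with 95% counting intervals; filled points are past 1.5-fold (dotted lines), blue when lower and orange when higher. Most points lie left of 0, the farthest being Egr1 in T cells at -1.81 and Fosb in Ly6c-high monocytes at -1.36, while Jun and Atf3 in cluster 3 lie right of 0.

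The Fos family members encode the AP-1 subunits that cannot pair with themselves and need a Jun partner. Of the compared classes, Fos was highest in cluster 12, at 1290 and 1081 CPM, and lowest in B cells, at 293 and 236. Between these, Ly6c-high monocytes (686), T cells (685), neutrophils (616), macrophages (612) and cluster 3 (557) had overlapping intervals with their neighbours in the wild-type-labelled library. In the deficient-labelled library monocytes at 350 and T cells at 352 CPM instead stood below macrophages at 452. Fos was thus lower by -0.97 (-1.07 to -0.88) in monocytes and -0.96 (-1.11 to -0.81) in T cells on the log2 scale, and its ratio was below 0 in all 9 classes, the smallest difference being -0.22 in cluster 10. Without cluster 14 the T cell ratio was -1.19. The neutrophil ratio of Fos, -0.33, reached 0.0939 when doublets were removed by rank, so its direction there depends on that setting.

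Fosb had its largest difference in Ly6c-high monocytes, 413 CPM (389 to 439) against 161 (150 to 172), a log2 ratio of -1.36 (-1.49 to -1.23). Already in the wild-type-labelled library monocytes had the lowest Fosb of the 9 classes, next to cluster 3 at 443. T cells had 744 against 440 CPM (-0.76) and neutrophils 757 against 483 (-0.65), and both were past 1.5-fold, although a stricter cell filter gave -0.455 in neutrophils. In macrophages Fosb was 636 against 489 (-0.38) and in dendritic cells 751 against 529 (-0.51). The share of monocytes with a Fosb UMI was 73.0% and 47.9%, at median depths of 9906.5 and 7756 UMIs. It was 28.9% and 12.4% when cells with at least 1000 UMIs were thinned to 1000. None of these classes is known to lack Fosb, so the share given by free RNA was not measured here. In cluster 3 Fosb lay on the other side, 443 against 561 CPM (0.34).

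The Jun family members pair with Fos proteins or with each other, and Junb and Jund often act against Jun in growth control. Jun spanned a wide range of classes. It was 1018 and 1053 CPM in cluster 10, in whose leading genes it appeared, and 954 and 1153 in cluster 12, but 115 and 160 in B cells. Macrophages had 360 and 352 CPM (-0.03, -0.14 to 0.08) and dendritic cells 239 and 231 (-0.05, -0.12 to 0.01), so that neither class differed beyond counting error. T cells had 328 against 217 (-0.60), or -0.576 without cluster 14, which is within 1.5-fold. In cluster 3, with 50 and 53 UMIs, Jun was 105 against 252 CPM (1.26, 0.68 to 1.85), higher in the deficient-labelled library. As a mean over cells this was 0.498, within 1.5-fold, and 3.13 with thinning, which left out most cells of the cluster.

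Junb gave the most UMIs of the 10 genes, 1896 and 1529 CPM over all cells kept. It was highest of the compared classes in cluster 3 at 3993 and 3506 CPM, with T cells at 3249 and neutrophils at 3058 next in the wild-type-labelled library, and lowest of the compared classes in B cells at 1532 and 1103. Its ratio was below 0 in all 9 classes and past 1.5-fold in neutrophils, where it was 3058 against 1900 CPM (-0.69), or -0.461 with doublets removed by rank. In T cells it was 3249 against 2181 (-0.57). The overlapping gene Prdx2 went the other way in both classes, 25.9 against 62.8 CPM in neutrophils and 103 against 151 in T cells.

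Jund, which is known for being made at rest as well as after a stimulus, was highest of the compared classes in cluster 3 at 2480 and 2385 CPM and lowest in dendritic cells at 961 and 789. Neutrophils had 2272 against 1258 CPM (-0.85, -0.99 to -0.72) and Ly6c-high monocytes 1342 against 838 (-0.68, -0.74 to -0.62). Both differences were past 1.5-fold. In B cells Jund was 1532 and 1594 CPM (0.06, -0.06 to 0.18), and in macrophages 1184 against 982 (-0.27).

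Egr1, the most abundant Egr gene here, had the largest ratio of all in T cells and the largest in macrophages. In the wild-type-labelled library neutrophils (658 CPM), macrophages (589), clusters 10, 3 and 12 and T cells (393) formed a high range in which each interval overlapped the next, and Ly6c-high monocytes (132), dendritic cells (78.0) and B cells (73.3) were low. T cells had 393 CPM (349 to 442) against 112 (102 to 124), a log2 ratio of -1.81 (-2.03 to -1.59). Macrophages had 589 (559 to 619) against 248 (237 to 260), a ratio of -1.24 (-1.34 to -1.15), with a UMI in 56.2% and 42.1% of cells, or 28.0% and 17.2% after thinning to 1000 UMIs. The thinned share in dendritic cells, low in both libraries, was 6.10% and 5.41%. Monocytes had 132 against 68.5 CPM (-0.95) and neutrophils 658 against 404 (-0.70), which were within 1.5-fold at -0.45 with per-cell marker gates and at -0.488 with a stricter cell filter. B cells had 73.3 against 113 CPM (0.62, 0.08 to 1.22), from 30 and 289 UMIs, and with thinning this ratio was -0.10.

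Inside the macrophage class the Egr1 difference lay in 1 of the 2 main clusters. Cluster 5, led by Mmp13, Pf4 and C1qa, had 1132 CPM (1073 to 1192) against 433 (412 to 456), a ratio of -1.38. Cluster 6, led by Inhba, Ptgs2 and Il1a, had 65.8 (52.3 to 81.7) against 76.8 (67.9 to 86.6), a ratio of 0.22. The clusters made up 53.7% and 48.7% (cluster 5) and 46.0% and 48.0% (cluster 6) of the class. The summed genes likewise differed less in cluster 6, 3937 against 3580 CPM (-0.14), than in cluster 5, 8911 against 6549 (-0.44), whose intervals were -0.18 to -0.09 and -0.48 to -0.41. In T cells Egr1 was lower in cluster 13 (250 against 151 CPM), cluster 14 (497 against 97.6) and cluster 16 (569 against 125), and without cluster 14 the T cell ratio was -1.32. For the summed genes clusters 13 and 16 gave -0.42 and -0.66.

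Egr2 and Egr3, which act in lymphocyte tolerance, were much rarer. Egr3 stood highest in B cells. It had 178 CPM (140 to 224) and 167 (152 to 184) in B cells, while no other compared class exceeded 47.6. B cells with an Egr3 UMI made up 50.6% and 37.2%, against 4.32% and 3.99% of Ly6c-high monocytes, which had more than 2 times the median depth in each library. Its B cell level did not differ beyond counting error between the libraries (-0.09, -0.45 to 0.29). T cells had 37.5 against 18.8 CPM (-0.99), from 27 and 71 UMIs. Egr2 ranged from 11.7 CPM in dendritic cells to 64.5 in cluster 10 in the wild-type-labelled library, with each interval overlapping the next, and was measured in 6 of 9 classes. Neither gene had 50 UMIs in T cells once cluster 14 was left out. The Egr2 ratio was -0.98 in T cells, from 31 and 82 UMIs, and 0.93 in cluster 12, from 29 and 76 UMIs, where thinning gave -0.09. In macrophages Egr2 was 44.9 against 38.4 CPM (-0.23, -0.54 to 0.10). In neutrophils Egr3 was 47.6 against 31.4 CPM (-0.60, -1.55 to 0.27), from 46 and 15 UMIs, an interval that holds 0. Egr3 in cluster 3 had 20 and 1 UMIs and fell under the minimum of 50.

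Atf3 was highest in neutrophils (946 CPM) and cluster 12 (843) in the wild-type-labelled library, with overlapping intervals. In the deficient-labelled library cluster 12 (782) stood above cluster 10 (537) and neutrophils (498). B cells were low, at 152 and 118 CPM. Its ratio was -0.93 (-1.14 to -0.72) in neutrophils, -0.70 (-0.81 to -0.58) in Ly6c-high monocytes and -0.60 (-0.65 to -0.55) in dendritic cells, which had 466 against 307 CPM. Without cluster 19 the monocyte ratio was -0.542, within 1.5-fold. The dendritic cell ratio ran from -0.717 to -0.489 over 13 other settings, of which 9 kept it past 1.5-fold. T cells had 228 and 222 CPM (-0.03, -0.28 to 0.22), an interval that holds 0, and this ratio ran over the settings tried from -0.377 without cluster 14 to 0.812 with per-cell marker gates. In cluster 3 Atf3 was higher in the deficient-labelled library, 109 against 242 CPM (1.15, 0.56 to 1.73), from 52 and 51 UMIs. This ratio was 2.71 with thinning, which left out most cells of the cluster. Of the compared classes, Ier2 was highest in cluster 12 (525 and 497 CPM) and lowest in macrophages in the wild-type-labelled library (175). It was the only member past 1.5-fold in none of the 9 classes, its ratios running from -0.54 in T cells and neutrophils, at 418 against 287 and 253 against 174 CPM, to 0.41 in cluster 10.

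As shares of the 10 genes' summed UMIs, which compare classes rather than genes because each transcript is captured with its own efficiency, the make-up differed between classes. Junb gave 36.9% and 43.4% of the members' UMIs in Ly6c-high monocytes and 44.4% and 45.1% in T cells, but 21.2% and 17.4% in cluster 12. Jun gave 12.2% and 15.1% in cluster 12 and 1.22% and 3.08% in cluster 3. Jund and Junb together made up most of the UMIs in every compared class but clusters 10 and 12. In B cells Jund gave 33.0% and 38.6% and Junb 33.0% and 26.7%. Egr3 contributed 3.84% and 4.06% there and under 1% in every other class and library. In macrophages the Egr1 share was 9.24% and 4.96%, the largest shift of a member's share in that class, followed by Junb at 34.7% and 37.8%.

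**Figure D3:**
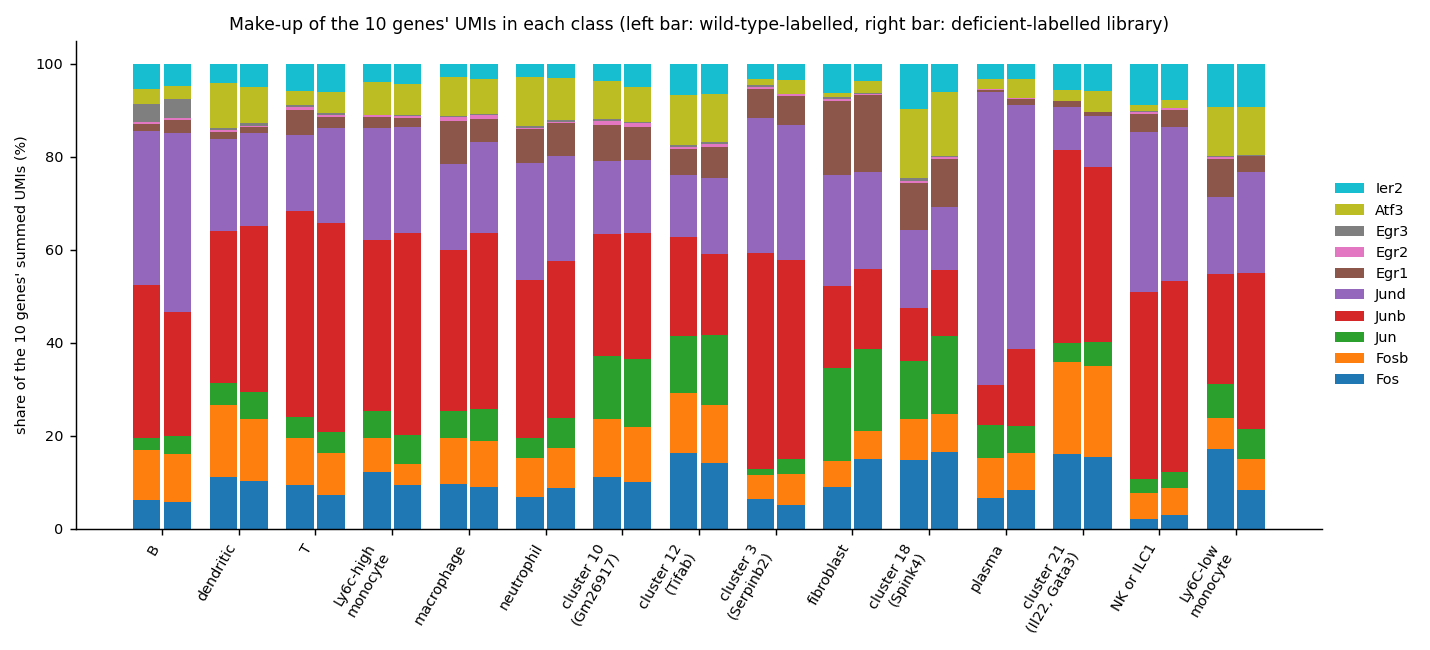
Share of each gene in the 10 genes' summed UMIs (0 to 100%), by class, left bar wild-type-labelled and right bar deficient-labelled library; the last 6 classes on the right had fewer than 50 cells in at least 1 library and were not compared. Junb and Jund (red and purple) together make up most of the UMIs in every compared class but clusters 10 and 12, and Jund leads plasma cells.

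In Ly6c-high monocytes the difference was seen across the range of cells. The median cell of the Ly6c-high monocytes had 5165 and 3300 CPM of the summed genes, the 10th percentile 2844 and 1659, and the 90th percentile 9992 and 6438. In neutrophils the medians were 8513 and 5703 and in T cells 6330 and 4382. In macrophages the 10th percentiles, 2260 and 1905, and the medians, 5403 and 4415, lay closer than the 90th percentiles, 16859 and 11885. Cells without any UMI of the 10 genes were at most 3.69% of a compared class, in cluster 3.

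The level also moved with depth. When the cells of a class were ordered by UMIs and split into terciles, macrophages had 11101 and 8131 CPM in the shallowest, 7782 and 5279 in the middle and 5321 and 4232 in the deepest tercile. Within each tercile the wild-type-labelled library stayed higher. The same held in monocytes, at 7718 against 4302, 5192 against 3377, and 5349 against 3609 CPM, in dendritic cells and neutrophils, and in the 2 lower terciles of T cells, where the deepest held fewer than 20 wild-type-labelled cells. In the unnamed clusters it did not hold throughout. Cluster 3 had 14966 against 8497 CPM in its shallowest and 7090 against 8176 in its deepest tercile, and cluster 10 had 12220 against 8363 and 6231 against 6620.

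The median mitochondrial shares of the libraries were 2.58% and 2.63% in monocytes and 4.65% and 4.02% in macrophages. Macrophages with 10 to 20% mitochondrial UMIs, however, were 12.9% and 3.76% of the class, and had 8050 and 7092 CPM of the summed genes. The level was 8066 and 6755 CPM at 5 to 10%, 5175 and 4504 at 2.5 to 5%, and 8061 and 4522 below 2.5%, the last from 24 and 114 cells, so that the wild-type-labelled library was higher in each bin. Time from dissection to capture is not given in the sources used here, and its part in the result was not tested.

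**Figure D4:**
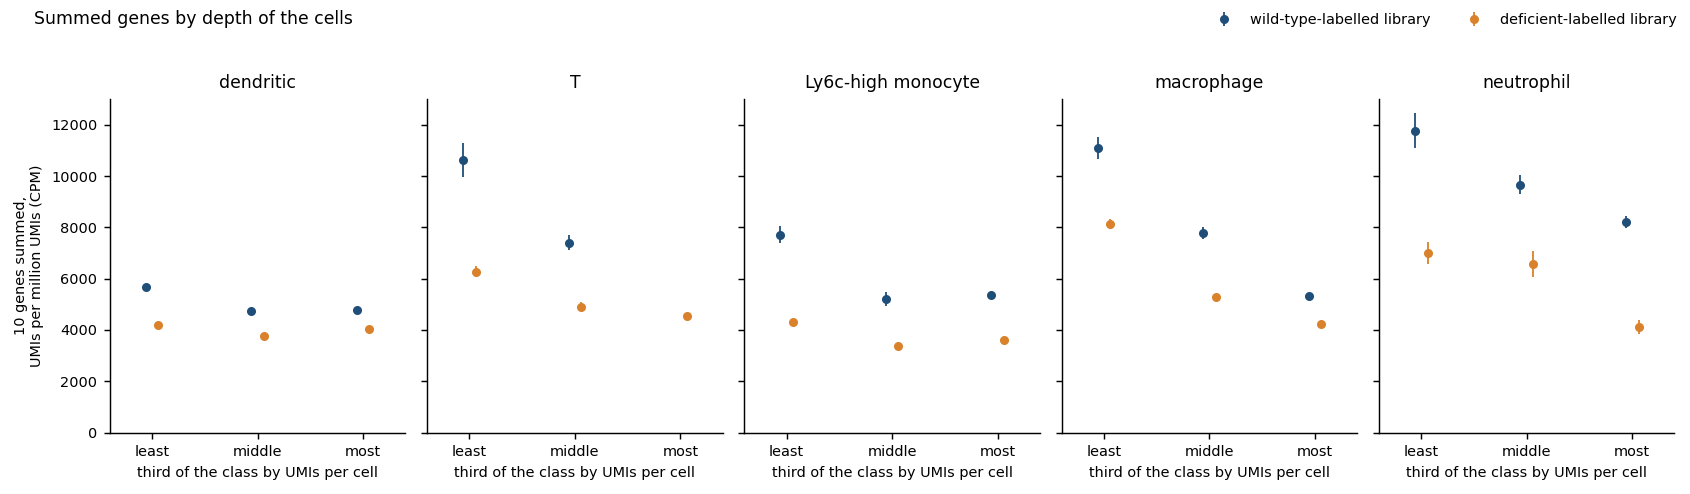
Summed level of the 10 genes, in UMIs per 1000000 UMIs (CPM) from 0, by tercile of each class ordered by UMIs per cell, in the wild-type-labelled (blue) and deficient-labelled (orange) library, with 95% counting intervals; bins under 20 cells are not drawn. The least deep cells are highest in all 5 classes, and blue lies above orange in each bin that both libraries fill.

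In monocytes and macrophages joined, where 5.45% of all genes were past 1.5-fold lower and 7.77% higher, other genes of the pathway had these values. Among the kinases that carry the signal to these promoters, 0 of 13 measured genes were past 1.5-fold, with a median ratio of 0.04, and their substrate Mapkapk2 had 414 and 446 CPM. Of serum response factor and its cofactors, 0 of 6 were lower and 1 was higher, Mkl1, at 27.7 against 46.0 CPM (0.74). The corepressors of Egr proteins, Nab1 (169 and 204 CPM) and Nab2 (21.3 and 19.4), were both within 1.5-fold. Of 17 other AP-1 and CREB family genes 0 were lower and 3 higher. They included Crem, a cAMP-responsive factor, at 154 against 275 CPM (0.84), and Jdp2, a repressor partner of Jun, at 158 against 247 (0.65), while Maff was 428 against 329 (-0.38). Against a median of 0.03 over all genes, this list's median was -0.07.

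Feedback genes, which are induced with the members and shut the response off, had a median of -0.28 in the same cells, with 0 of 10 lower and 2 higher. Zfp36, which destabilises early mRNAs, had 1301 against 1086 CPM (-0.26) and the phosphatase Dusp1 1152 against 936 (-0.30), but Socs3 had 227 against 340 (0.59). In T cells, against 11.5% and 19.1% of all genes, 6 of 11 feedback genes were lower and 0 higher, with a median of -0.89. Without cluster 14 the counts were again 6 of 11 and 0, against 6.93% and 11.1% of all genes, with a median of -0.63. Of 21 other immediate-early genes measured in monocytes and macrophages joined, 2 were lower and 1 higher, with a median of -0.16. In these cells Nfkbia, the inhibitor of NF-kB, had 2924 against 2411 CPM (-0.28) and Klf6 1778 against 1548 (-0.20). Btg1, an antiproliferative gene, had 2140 against 2504 (0.23).

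Of the heat shock genes, which encode chaperones, 9 of 12 were within 1.5-fold in monocytes and macrophages, 0 lower and 3 higher, with a median of 0.12. The most abundant, Hspa8, had 2013 and 2195 CPM (0.13), and Hsph1 had 44.1 against 112 CPM (1.34). Their median ratio was above 0 in all 9 compared classes and reached 1.29 in cluster 3, where 8 of 10 were higher, against 12.0% of all genes. Of 15 known targets of AP-1 and Egr proteins measured in monocytes and macrophages joined, 5 were lower and 1 higher. Of all genes there, 5.45% were lower and 7.77% higher, and the median of the targets was -0.11. In T cells 0 of 11 targets were lower and 9 higher, against 11.5% and 19.1% of all genes, with a median of 0.82. Without cluster 14 it was 0 of 5 and 2, against 6.93% and 11.1%, with a median of 0.25. Cells with an H2-Ab1 UMI were 51.5% and 89.8% of the T cell class, and their part in these counts was not tested. In monocytes and macrophages joined, the cytokine Il6 had 195 against 101 CPM (-0.94) and the collagenase Mmp13 241 against 456 (0.92). Ptgs2, the inducible prostaglandin synthase, was 1578 against 1503 (-0.07) in these cells. The mitochondrially encoded genes had 0 of 11 past 1.5-fold and a median of -0.06 in monocytes and macrophages joined.

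Across 22 class levels, those with at least 50 cells in a library, the members did not share 1 pattern. As a description over log2 levels, and with classes of a library sharing its preparation and depth, Pearson's r was highest between Fos and Jun (0.81), Fos and Atf3 (0.76) and Jun and Atf3 (0.71), and lowest between Jun and Jund (-0.36). Junb and Jund had an r of 0.44 with each other and of 0.10 and -0.27 with Fos. Of 11426 other genes, those most like the summed members were Chka (0.86), Midn (0.86) and Wsb1 (0.79), followed by Ints6, Ccnl1, Nabp1, Klf10, Rsrp1, Nufip2 and Ing1. Junb was most like Lfng, Fosl2 and Hexim1 (all 0.89), Egr1 most like Rhob (0.78), Egr3 most like Ubap2l (0.81), Fos most like Fam46a (0.82) and Atf3 most like Rnf141 (0.81).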

How the data were processed

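Colonic lamina propria cells went through the 10x Single Cell 3′ V3 chemistry, per the labels' protocols, as 1 wild-type-labelled and 1 deficient-labelled library. The authors deposited whole UMI counts for every gene in each barcode, with no normalization. The submitters' processing notes name Cell Ranger, STAR 2.5.1b and mm10, and per the file headers the software version was 3.0.2.

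The 3020 and 6133 barcodes held 23384895 and 54773076 UMIs. A barcode was kept with a minimum of 200 genes and 500 UMIs and no more than 20% of mitochondrial UMIs (2610 and 5890 passed). Scrublet in scanpy 1.11.5 marked 5 and 1 of these, 0.0706%, so it did not work here, and doublets remain apart from an alternative that removed 54 and 277 cells by score rank. Cells were clustered with leidenalg 0.10.2 at resolution 1 on 30 principal components of 2000 variable genes, without batch correction, and named from markers of 23 cell types. The named genes were the members and, from each list, the 3 with most UMIs and up to 2 more past 1.5-fold.

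UMIs were summed per class and given per 1000000 UMIs of the class (CPM) with exact Poisson intervals. Ratios carry exact conditional binomial intervals and shares of cells exact Clopper-Pearson intervals. No test was run, with 1 library per group. A gene needed 50 UMIs over both libraries, since with 1 UMI in each library the share of genes past 1.5-fold lower in monocytes and macrophages is 13.7% in place of 5.45%. The ratio calculation was tested on simulated data. The members and lists were chosen with earlier results of these data known. Mrtfa, Mrtfb and Ccn1 were listed and had no row in the matrix. Analyses ran in Python 3.11.15 with scipy 1.17.1, numpy 2.4.6 and pandas 2.3.3, and plots used matplotlib 3.10.9. One gene that the naming rule picked is not reported here.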

Additional observations from a re-analysis of the deposited data

Results flagged for a closer look

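Of the members, 4 were over 1.5-fold lower in some classes and over 1.5-fold higher in another, and with 1 library per genotype the difference between classes was not tested. Egr1 had log2 ratios of -1.81 in T cells, -1.24 in macrophages, -0.949 in Ly6c-high monocytes and -0.705 in neutrophils, against 0.625 in B cells. Atf3 had -0.926 in neutrophils, -0.695 in monocytes and -0.603 in dendritic cells, against 1.15 in cluster 3 (Serpinb2 and Ccr3). Jun had -0.597 in T cells against 1.26 in cluster 3, where it ran from 0.498 to 3.13 over 6 other settings, and Egr2 -0.984 in T cells against 0.928 in cluster 12 (Tifab).

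Barcodes over the mitochondrial limit, 325 and 200 of which met the other filters, entered no comparison, yet some members were above their level in the wild-type-labelled cells kept. Jun had 938 and 864 CPM in them, against 330 in those cells. Egr1 had 355 and 488 CPM, against 233. Atf3 had 645 CPM in the wild-type-labelled barcodes, against 489, and Egr2 50.6 CPM in the deficient-labelled barcodes, against 19.9.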

How the results depend on the processing

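Besides the reported one, 13 settings were run. Thinning to 1000 UMIs, which left out cells with fewer, and leaving out clusters 14, 19 and 23 were chosen after seeing the data. The members' median log2 ratio in monocytes and macrophages together, -0.371 as reported, was -0.425 with no mitochondrial limit, -0.418 at resolution 0.5, -0.348 with the members among the clustering genes, -0.291 with per-cell marker gates, -0.400 with median-of-ratios scaling, -0.533 as a mean over cells and -0.482 with thinning. The median of the summed members over classes, -0.292 as reported, was -0.436 with a stricter cell filter, -0.315 at resolution 0.5, -0.325 at resolution 2, -0.313 with the members among the clustering genes and -0.433 with marker gates. The count of classes over 1.5-fold lower, 3 of 9 as reported, was 1 as a mean over cells and 1 without the 3 clusters, and 2 to 4 in the others. Classes with a summed ratio below 0, 9 of 9 as reported, were 7 of 8 with no mitochondrial limit, 9 of 10 with doublets removed by rank and at resolution 2, and 8 of 9 with median-of-ratios scaling and with thinning. Thinning turned Egr1 in B cells to -0.1031 and Egr2 in cluster 12 to -0.08795. Of 26 ratios past 1.5-fold, 24 kept their sign in every setting run and 12 stayed past 1.5-fold, among them Fosb in Ly6c-high monocytes (-1.503 to -1.173) and Egr1 in macrophages (-1.294 to -0.9944) and in T cells (-2.075 to -1.323). The cause of these changes was not tested. No paired analysis was possible because each group has 1 library. Egr2 and Egr3, with under 100 UMIs in most classes, are limited by depth.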

Other observations

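Classes with fewer than 50 cells in a library entered no comparison. Cluster 21 (17 and 49 cells), led by Il22, Tnfsf11, Rora and Gata3 and with Gata3 UMIs in 82.4% and 61.2% of its cells, had the highest summed level of all, 17503 and 13726 CPM. Junb alone gave 7260 and 5166 CPM there, Fosb 3482 and 2686 and Fos 2815 and 2114. NK cell or ILC1-like cells (39 and 108) had 7502 and 6402 CPM, with Junb at 3021 and 2625 and Jund at 2576 and 2121, but Fos at only 152 and 185. Plasma cells (5 and 62) were lowest at 2970 and 2667, and Jund gave 62.8% and 52.6% of their members' UMIs. Fibroblasts (20 and 279) had Fos at 382 and 760 CPM, Atf3 at 37.0 and 130 (9 and 290 UMIs), Egr1 at 678 and 832 and Jun at 855 and 895, and their summed level, 4265 and 5022 CPM, was higher in the deficient-labelled library. Cluster 18 (41 and 61), led by Spink4, Agr2 and Muc2, had Jun at 1090 and 1283, Egr1 at 887 and 788 and Atf3 at 1312 and 1050; the endothelial gene Pecam1 had a UMI in 7.32% and 27.9% of its cells. Ly6C-low monocytes (34 and 20) had Fos at 1222 and 444 CPM and Egr1 at 590 and 189.

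Among dendritic cell clusters, those led by Retnla and Ccl17 (cluster 4) had Fos at 264 and 259 CPM, while the cycling cluster 9, led by Pclaf and Top2a, had 936 and 564. Cluster 17, led by Fscn1 and Ccl22, had the lowest summed level of the 5, 3093 and 3014 CPM.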
